A study of Mus musculus with 22 samples.

Results

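The 8 genes described here are keratins, claudins and a junction scaffold that mark the trophectoderm, the outer epithelium of the mouse blastocyst. They are Krt7, Krt8, Krt18, Krt19, Cldn4, Cldn6, Cldn7 and Tjp1, chosen by symbol out of 21881 gene symbols in a table of read counts, and all 8 were found in it. The RNA came from 8 whole single embryos collected at day 3.5 and from 7 cultured lines. The embryos comprised 4 Nanog-null (2 female, 2 male), 2 Nanog-heterozygous (1 of each sex) and 2 wild-type (1 of each sex) embryos, and the labels name neither the allele nor the strain. The lines were 3 trophoblast stem (TS) lines (2 female, 1 male), 2 extraembryonic endoderm (XEN) lines (both male) and 2 embryonic stem (ES) lines (1 of each sex), all wild type for Nanog, with ES cells labelled as grown serum free. TS, XEN and ES lines are cultured from, and stand for, the trophectoderm, the primitive endoderm and the epiblast. Each line had 2 libraries, made from different passages, and their counts were summed, so the line is the sample.

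Keratins 8 and 18 are the first intermediate filament proteins of the mouse embryo. A type II keratin such as KRT7 or KRT8 pairs with a type I keratin such as KRT18 or KRT19 to build the filament, and desmosomes tie these filaments from cell to cell. Claudins are the membrane proteins that seal tight junctions, and TJP1 (ZO-1) anchors them to actin beneath the membrane. The trophectoderm needs this seal to hold the fluid of the blastocyst cavity. Nanog, which encodes a homeodomain factor of the epiblast, was the gene removed in the null embryos.

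In whole Nanog-null embryos none of the members passed the test, but the 4 null embryos were unlike each other. Null F1 and null M1 carried Krt8, Krt18 and Cldn4 at levels of Nanog-bearing (heterozygous and wild-type) embryos. By contrast, null F2 and null M2 lay below every Nanog-bearing embryo for all 3 genes, and also for Cldn7. Null F2 and M2 also held 9 and 11 of 12 fibroblast markers above 0, against 0 to 3 in each of the other 6 embryos. The sums of these markers, 6.03 and 6.7 CPM, lay within the range of Nanog-bearing embryos, 0.0859 to 16.3 CPM. Markers of differentiated trophoblast summed to 4.84 and 0 CPM in null F2 and M2, against 16.2 to 47 CPM in the other 6 embryos. The part of either marker list in the split was not tested. Among the lines, the keratins and Cldn6 were far higher in TS than in ES cells. XEN cells held Krt8, Krt18 and Tjp1 above ES cells but Cldn4 and Cldn7 under 1 CPM.

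Krt7, Krt8 and Krt18 lie on chromosome 15, Krt19 and Cldn7 on chromosome 11, Cldn4 on chromosome 5, Cldn6 on chromosome 17 and Tjp1 on chromosome 7. Krt8 and Krt18 are neighbours on opposite strands, and the closest coding gene to Cldn6 is another claudin, Cldn9. Promoters of 7 of the 8 members were found in RefSeq (GRCm38.p6). The bases before the annotated start are shown for Krt8, Krt18, Cldn4 and Cldn6. Krt8 and Krt18 are both lowest in null F2 and M2 among embryos and in ES cells among lines, though their ratio differs between lineages. Cldn4 and Cldn6 part in XEN cells. Capitals mark matches, on either strand, to 6 motifs. The GATA motif was searched as AGATAA and, for the other variant that is accepted, as TGATAA. The motif of TEAD factors was searched as GGAATG, that of AP-2 factors as GCCNNNGGC and that of grainyhead-like (GRHL) factors as ACCGGT. The motif of CDX factors was searched as TTTATG with the further variant written TTTATT, and that of SP and KLF factors as GGGCGG. Each sequence ends before the first transcript start of GENCODE M21. They lie at chr15:102004483-102004592 (minus strand) for Krt8, chr15:102027966-102028179 (plus strand) for Krt18, chr5:134946935-134947184 (minus strand) for Cldn4 and chr17:23679115-23679248 (plus strand) for Cldn6.
Krt8: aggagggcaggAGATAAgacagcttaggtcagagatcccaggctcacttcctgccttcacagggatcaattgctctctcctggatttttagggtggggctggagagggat
Krt18: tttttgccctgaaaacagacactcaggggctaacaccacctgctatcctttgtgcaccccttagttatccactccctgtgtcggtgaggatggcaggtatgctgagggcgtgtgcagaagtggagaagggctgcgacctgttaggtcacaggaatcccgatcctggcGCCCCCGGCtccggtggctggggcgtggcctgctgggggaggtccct
Cldn4: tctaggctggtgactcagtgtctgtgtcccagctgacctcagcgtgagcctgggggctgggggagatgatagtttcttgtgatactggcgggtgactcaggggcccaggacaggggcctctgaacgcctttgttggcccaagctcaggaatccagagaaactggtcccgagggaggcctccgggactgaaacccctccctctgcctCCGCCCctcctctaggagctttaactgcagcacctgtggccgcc
Cldn6: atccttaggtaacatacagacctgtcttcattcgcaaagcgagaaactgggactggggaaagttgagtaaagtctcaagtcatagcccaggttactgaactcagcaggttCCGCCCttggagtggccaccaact
In the 250 bases before the RefSeq start, Krt8 held 1 GATA match and Krt18 held 1 AP-2 match, so the neighbouring pair shared none of the 6 motifs. Cldn4 held 1 SP/KLF match and Cldn6 held 2, 1 of them in the stretch printed. Krt7 held 4 SP/KLF matches, 2 AP-2 matches and 1 CDX match, and an SP/KLF match overlapped an AP-2 match there. Tjp1 held 1 GATA match and 2 SP/KLF matches, and Cldn7, with 2 annotated promoters, held 1 TEAD match in the first and 1 SP/KLF match in the second. Over all 32851 promoters of the same length, 16.6% held the GATA motif, 12.6% the TEAD motif, 13.7% the AP-2 motif, 25.5% the CDX motif, 1.86% the GRHL motif and 32.7% the SP/KLF motif. A match is a run of letters and nothing more.

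Levels are in CPM, the counts of a gene scaled to a common library total. Nanog itself averaged 0.433 ± 0.153 CPM in null embryos (SD, n = 4), 70.6 ± 24 CPM in heterozygous embryos (n = 2) and 122 ± 21.1 CPM in wild-type embryos (n = 2). Embryo libraries held 14.8 M to 32.2 M counts and line libraries 8.2 M to 23.7 M counts (M for mega). Null embryos lacked more genes than the others: of genes averaging at least 5 CPM in the other 7 embryos, null F1 had at most 3 counts for 570, F2 for 300, M1 for 133 and M2 for 809, against 68 and 45 in the heterozygous and 40 and 41 in the wild-type embryos. Embryo cDNA was amplified with a low-input kit and line libraries were made with another kit, so kit and source cannot be told apart and embryos were not tested against lines. Whole embryos mix cell types, and fewer cells of a type and less RNA per cell cannot be told apart in them. For lines, Pou5f1 marked ES cells (4.96 ± 1.21 CPM in TS, 3.29 ± 0.263 in XEN and 1624 ± 60.8 in ES lines), Cdx2 TS cells (109 ± 18.7, 2.79 ± 3.12 and 6.02 ± 5.29 CPM in the same order) and Gata6 XEN cells (3 ± 0.593, 320 ± 96.5 and 0.439 ± 0.0524 CPM). Nothing in the labels says whether embryos shared litters, so p-values measure only the spread between these samples.

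Type II keratin Krt8, the partner of KRT18 in simple epithelia, had 2471, 810, 2478 and 958 CPM in null F1, F2, M1 and M2, against 1786 and 2453 CPM in heterozygous and 2457 and 2960 CPM in wild-type embryos (F, then M, in each). Null F2 and M2 were below all 4 Nanog-bearing embryos, null F1 and M1 were not, and the groups overlapped. The fitted log2 difference was -0.41 (SE 0.36, 95% interval -1.21 to 0.38, adjusted p = 0.983), with means of 1679 ± 920 CPM in null and 2414 ± 482 CPM in Nanog-bearing embryos (SD, n = 4 each).

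Krt18, its type I partner, had 4624, 1348, 5286 and 1322 CPM in null F1, F2, M1 and M2, against 3638 and 3562 CPM in heterozygous and 5345 and 4423 CPM in wild-type embryos. The same null embryos were low, and null M1 stood above all but the wild-type female. The mean was 3145 ± 2107 CPM in null and 4242 ± 832 CPM in Nanog-bearing embryos, a log2 difference of -0.34 (SE 0.43, -1.29 to 0.61, adjusted p = 0.998). The intervals for both genes reach below -1 on the log2 scale, so they do not exclude a loss of that size.

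Cldn4, a sealing claudin of the trophectoderm, had 1224, 204, 1251 and 335 CPM in null F1, F2, M1 and M2, against 962 and 1383 CPM in heterozygous and 1039 and 1117 CPM in wild-type embryos. Null F2 and M2 were again the lowest of the 8 embryos. Means were 754 ± 562 CPM in null and 1125 ± 183 CPM in Nanog-bearing embryos, and the log2 difference was -0.49 (SE 0.50, -1.61 to 0.62, adjusted p = 0.991). Genes lacked numbered 570 and 133 in null F1 and M1, and 300 and 809 in null F2 and M2. The part of these lacked genes in the split was not tested. Cdx2, the trophectoderm factor, had 56.8, 31.3, 72.6 and 62.9 CPM in null F1, F2, M1 and M2, against 56.5 to 93.8 CPM in Nanog-bearing embryos, so it was low in F2 and not in M2.

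**Figure D1:**
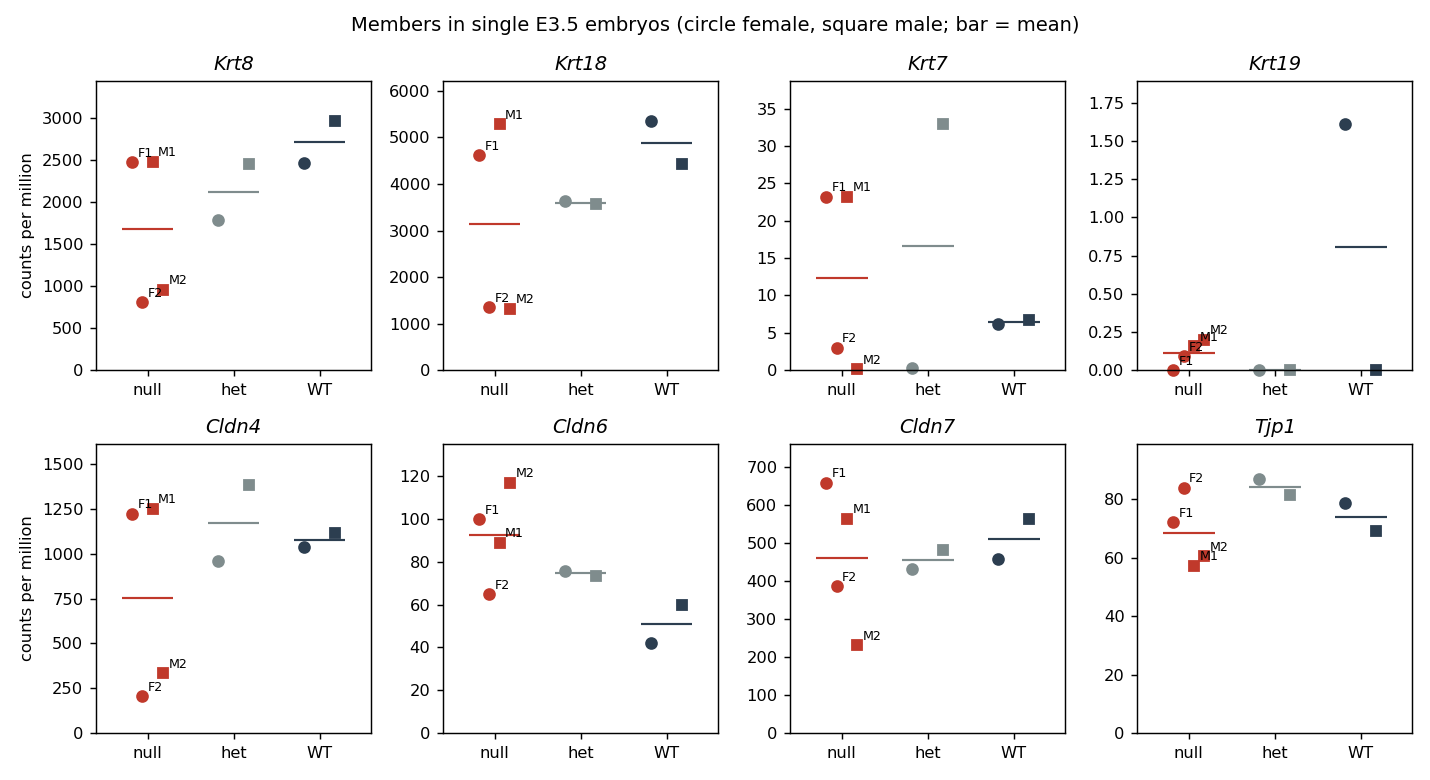
CPM of the 8 members in each embryo by genotype, with null, heterozygous (het) and wild-type (WT) embryos from left to right, circles for females, squares for males and a bar at the mean. Null F2 and M2 lie at 810 and 958 CPM of Krt8 and at 204 and 335 CPM of Cldn4, below every other embryo.

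Cldn6, a claudin of early epithelia and pluripotent cells, was the member with the smallest p. It had 100, 64.8, 89 and 117 CPM in null F1, F2, M1 and M2, against 75.8 and 73.4 CPM in heterozygous and 42.2 and 59.7 CPM in wild-type embryos. All null values were above both wild-type values, while null F2 fell under the heterozygous ones. The log2 difference from Nanog-bearing embryos was 0.71 (SE 0.32, 0.00 to 1.41, unadjusted p = 0.0496, edgeR-adjusted p = 0.931), which did not pass. Against wild type alone it was 1.01 (SE 0.40, unadjusted p = 0.0318, edgeR-adjusted p = 1). Non-overlap of this kind was common: 1 of the 8 members did not overlap between null and wild-type embryos, where 15.1% of tested genes did not, and 0 members did not overlap between null and Nanog-bearing embryos, where 5.32% of genes did not.

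Cldn7, another sealing claudin, had 658, 386, 564 and 231 CPM in null F1, F2, M1 and M2, against 430 and 482 CPM in heterozygous and 458 and 562 CPM in wild-type embryos. Null F2 and M2, the embryos low in Krt8, Krt18 and Cldn4, lay below every Nanog-bearing embryo, and null F1 and M1 lay above them all. The log2 difference was 0.01 (SE 0.30, -0.65 to 0.67). Tjp1 had 72.2, 84.1, 57.3 and 60.5 CPM in the null embryos, against 87 and 81.7 CPM in heterozygous and 78.8 and 69.2 CPM in wild-type embryos, with a log2 difference of -0.10 (SE 0.28, -0.73 to 0.53). The groups overlapped, and null F2, low in Krt8, Krt18, Cldn4 and Cldn7, had the most Tjp1 of the null embryos.

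Krt7 and Krt19, the second keratin pair, were scarce in embryos. Krt7 had 23.2, 3.01, 23.2 and 0.1 CPM in null F1, F2, M1 and M2, against 0.258 and 32.9 CPM in heterozygous and 6.14 and 6.73 CPM in wild-type embryos. It was near 0 in null M2 (2 counts) and in the heterozygous female (6 counts), and its log2 difference of 0.62 had an SE of 1.60. Leaving out null F1 turned that difference to -0.40, and leaving out the heterozygous female turned it to -0.20. Krt19 had 0, 2, 3 and 4 counts in null F1, F2, M1 and M2, 0 in both heterozygous embryos, and 38 and 0 in the wild-type female and male. It did not pass the filter on low counts and was not tested, and 3 counts correspond to between 0.0931 and 0.203 CPM in these libraries, a floor that covers counting error only.

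Thus 7 of the 8 members were tested in embryos and 0 were called (adjusted p under 0.05) in null against Nanog-bearing embryos, where 0.0154% of the 12965 tested genes were called. Equally 0 were called against wild-type embryos (0.0154% of genes called), against heterozygous embryos (0.00771%) and between heterozygous and wild-type embryos (0%). At an unadjusted edgeR p under 0.05 the members past the threshold were 1, 1, 0 and 0 in these 4 comparisons, always Cldn6, beside 644, 500, 357 and 107 of the 12965 genes, and 1 of 7 members is not set apart from that background. DESeq2 and limma voom called 0 members in each. The median log2 difference of the 7 tested members was -0.10 in null against Nanog-bearing embryos, beside -0.05 over all tested genes. A sex-by-genotype term was called for 0 of 12965 genes. Female and male embryos were balanced in each genotype.

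**Figure D2:**
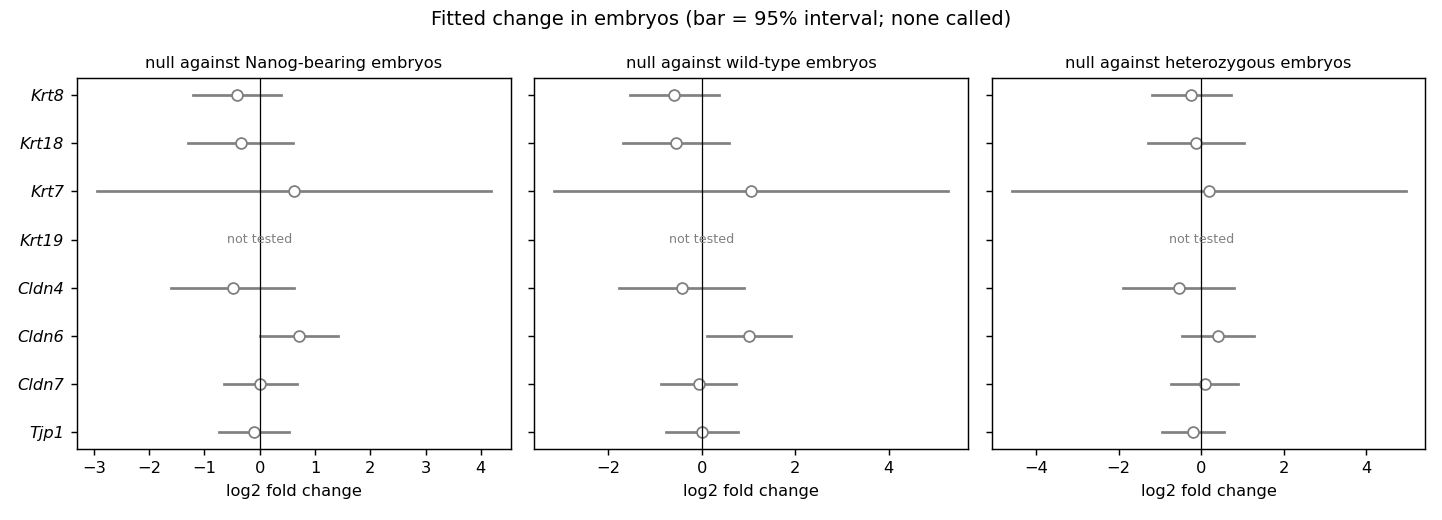
Fitted log2 fold changes (points) with 95% intervals (bars) of the members in null embryos against Nanog-bearing, wild-type and heterozygous embryos. Points are open because none passed, and the interval of Krt7 runs from -2.95 to 4.18 in the left panel.

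The balance of the main keratin pair varied less than its level. The log2 ratio of Krt8 to Krt18 counts averaged -0.80 ± 0.26 in null embryos (n = 4), -0.79 ± 0.35 in heterozygous and -0.85 ± 0.38 in wild-type embryos (n = 2 each), differences smaller than the spread within groups. Null F2 (-0.74) and M2 (-0.47) lay inside the range of the other embryos, -1.12 to -0.54, or just above it. Together the 4 keratins took 0.712%, 0.216%, 0.779% and 0.228% of the counts in null F1, F2, M1 and M2, against 0.543% to 0.781% in Nanog-bearing embryos. Claudin make-up differed in null F2 and M2. Of the counts of the 3 claudins, Cldn7 took 58.9% in null F2 and Cldn6 took 17.1% in null M2, whereas Cldn4 took 61.8% to 71.4% in the other 6 embryos, 31.2% in null F2 and 49.1% in null M2. A share is not a level: in null F2 Cldn7 was at 386 CPM, below every Nanog-bearing embryo, and Cldn4 at 204 CPM.

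Per length, as RPKM (CPM divided by the GENCODE M21 transcript length in kilobases), the order of mean levels in null embryos was Krt18 (2188 ± 1467), Krt8 (858 ± 470), Cldn4 (415 ± 309), Cldn7 (344 ± 142), Cldn6 (57.1 ± 13.4), Tjp1 (9.72 ± 1.73), Krt7 (3.02 ± 3.07) and Krt19 (0.071 ± 0.0551, SD, n = 4). In wild-type embryos the order was the same, at 3399 ± 454 RPKM for Krt18, 1383 ± 182 for Krt8, 594 ± 30.4 for Cldn4, 382 ± 55.4 for Cldn7, 31.4 ± 7.63 for Cldn6, 10.5 ± 0.967 for Tjp1, 1.57 ± 0.103 for Krt7 and 0.51 ± 0.721 for Krt19 (n = 2). Heterozygous embryos stood at 2505 ± 37.8, 1083 ± 241, 646 ± 164, 341 ± 27.7, 46 ± 1.06, 12 ± 0.537, 4.05 ± 5.64 and 0 RPKM for the members in that order. Among neighbours in the null order, Krt18 and Krt8, Krt8 and Cldn4, Cldn4 and Cldn7, and Krt7 and Krt19 differed by less than the larger SD. Each length is that of the longest transcript with a curated RefSeq match, from 1335 bases for Cldn7 to 4094 for Krt7 and 7049 for Tjp1.

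No list of partner genes had a called member in null against Nanog-bearing embryos. Of 12 tested desmosome and keratin linker genes, 6 had a log2 difference above 0 and 6 below 0 (median -0.03). Among them Dsp, which encodes desmoplakin, stood at 52.4 ± 21.8 CPM in null and 126 ± 20.9 CPM in Nanog-bearing embryos (log2 difference -1.17, SE 0.34, unadjusted p = 0.00674, edgeR-adjusted p = 0.931). Its null values, 29.2 to 72.3 CPM, did not reach the Nanog-bearing ones, 95.3 to 142 CPM. In this comparison 5.32% of all tested genes did not overlap, and Dsp was named for the smallest p of its list. Plec, encoding the linker plectin, had 66.2 ± 12.9 CPM in null and 118 ± 29.1 CPM in Nanog-bearing embryos (log2 -0.70, SE 0.27). Of 28 tight junction and polarity genes, 8 were above 0 and 20 below 0 (median -0.25). Crb3, an apical polarity gene, had 74.4 ± 20.3 CPM in null and 46 ± 8.78 CPM in Nanog-bearing embryos (log2 0.81, SE 0.32). Mpdz had 276 and 22 counts summed over the 4 embryos of each group, unevenly spread. It ran from 0 to 11.4 CPM in null (mean 3.19 ± 5.48) and from 0 to 1.49 CPM in Nanog-bearing embryos (mean 0.372 ± 0.745). Of 9 adherens junction genes, 2 were above 0 and 7 below 0 (median -0.38). Epcam had a log2 difference of 0.62 (SE 0.30) and Ctnna1, encoding alpha-catenin, -0.43 (SE 0.22).

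Of 17 trophectoderm and epithelial transcription factors, 10 were above 0 and 7 below 0 (median 0.18). Eomes had 88.6 ± 40 CPM in null and 48.3 ± 24.9 CPM in Nanog-bearing embryos (log2 1.08, SE 0.44), and Hand1 had 33.9 ± 20 and 12.2 ± 5.9 CPM (log2 1.51, SE 0.62). None of the genes named from these lists passed after adjustment in edgeR, and DESeq2 alone called Mpdz. Of 3 other keratins, 3 were above 0 (median 0.62). Krt10 had 11.1 ± 5.05 CPM in null and 7.75 ± 1.87 CPM in Nanog-bearing embryos. Krt23 had 138 and 60 counts in all, unevenly spread, with 0 to 6.3 CPM in null and 0 to 4.06 CPM in Nanog-bearing embryos. Of 6 other claudins, 3 were above 0 and 3 below 0 (median -0.19). Cldn18 had 0 and 43 counts and Cldn11 had 50 and 17 counts in all. Cldn11 was also uneven, with 0 to 2.49 CPM in null and 0 to 1.15 CPM in Nanog-bearing embryos. Of 9 other intermediate filament genes, 2 were above 0 and 7 below 0 (median -0.31). Lmna, encoding lamin A, had 159 ± 82.1 and 218 ± 92 CPM, and Ina had 6.05 ± 7.34 and 1.87 ± 1.71 CPM. The authors' deposited table lists 78 genes as Nanog-regulated, and 0 of the members are among them.

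The lists of fibroblast, blood, and oviduct and cumulus markers each summed to 19.2 CPM or less in every embryo. The count of fibroblast markers above 0 moved with the split of the null embryos. It was 1, 9, 0 and 11 of 12 in null F1, F2, M1 and M2, against 2 and 3 in heterozygous and 2 and 3 in wild-type embryos. The sums of these markers were 2.62, 6.03, 0 and 6.7 CPM in null F1, F2, M1 and M2. The heterozygous male (16.3 CPM) and the wild-type male (9.12 CPM) stood above all of them. Summed over the 12 fibroblast markers they reached 0 to 6.7 CPM in null, 0.0859 to 16.3 in heterozygous and 3.6 to 9.12 CPM in wild-type embryos, with Twist1 at 0 in all. Summed over 9 blood markers they reached 5.4 to 11.7, 4.64 to 19.2 and 11 to 12.3 CPM, with Tyrobp at 0 in all, and over 9 oviduct and cumulus markers 0.061 to 7.38, 1.55 to 3.18 and 1.74 to 17.4 CPM, with Amh, Inha, Has2 and Ptx3 at 0 in all. Summed over 12 markers of differentiated trophoblast they reached 0 to 47, 18 to 22.8 and 16.6 to 36.4 CPM, with Prl3d1, Tpbpa, Gcm1 and Psg21 at 0 in all. These sums also moved with the split, at 16.2, 4.84, 47 and 0 CPM in null F1, F2, M1 and M2. Null F2 and M2 thus lay below every other embryo. Plac1 had the highest mean of these markers in each genotype, with 0 to 43.9 CPM in null embryos. Sets of 10 epiblast and 10 primitive endoderm markers gave 2540 to 4650 and 1190 to 1990 CPM in null, 3120 to 3710 and 1680 to 1940 CPM in heterozygous, and 3890 to 4040 and 1730 to 2440 CPM in wild-type embryos. Their part in the values of the members was not tested.

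In lines the keratins separated TS from ES cells most widely. Krt8 had 659, 1087 and 3240 CPM in TS F1, F2 and M3, 533 and 588 CPM in XEN M1 and M2, and 34 and 51.5 CPM in ES F1 and M2. TS and XEN lines did not overlap ES lines, and TS M3 was far above the other TS lines. Krt8 rose in TS against ES lines (log2 5.39, SE 0.82, adjusted p = 0.00253) and in XEN against ES lines (log2 4.06, SE 0.78, adjusted p = 0.00521). TS against XEN lines gave log2 1.34 (SE 0.66, -0.20 to 2.88, adjusted p = 0.151). That difference was 0.32 without TS M3 and 0.59 with limma voom, and it passed without TS F1 (1.73), with a sex term (1.98) and with all libraries in a block fit (1.35), with adjusted p between 0.0156 and 0.411 over all alternatives. Without TS M3 the change from ES lines was 4.38.

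Krt18 had 1313, 1390 and 3305 CPM in TS F1, F2 and M3, 394 and 468 CPM in XEN M1 and M2, and 9.93 and 26.1 CPM in ES F1 and M2. The 3 lineages did not overlap, in the order TS, XEN, ES. It rose in TS against ES lines (log2 6.90, SE 0.74, adjusted p = 0.000691), in TS against XEN lines (log2 1.97, SE 0.57, adjusted p = 0.0309) and in XEN against ES lines (log2 4.93, SE 0.69, adjusted p = 0.00133). The TS against XEN call was lost without XEN M1 (log2 1.84) or XEN M2 (2.10), each time with a lone XEN line assumed to vary like the other lineages, and without TS M3 the change was 1.33. Its adjusted p ranged over all alternatives tried between 0.00031 and 0.145. Without TS M3 or ES M2 the TS against ES change was 6.26 or 7.73, and without ES M2 the XEN against ES change was 5.76.

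Krt7 had 160, 247 and 555 CPM in TS F1, F2 and M3, 1.14 and 0.311 CPM in XEN M1 and M2, and 0.574 and 2.96 CPM in ES F1 and M2. It stood above XEN and ES lines in every TS line, and XEN and ES lines overlapped. It rose in TS against ES lines (log2 7.59, SE 1.05, adjusted p = 0.00182) and in TS against XEN lines (log2 8.51, SE 1.10, adjusted p = 0.00126), while XEN against ES lines gave log2 -0.92 (SE 0.97, -3.19 to 1.35, adjusted p = 0.472). Without TS M3, ES F1 or ES M2 the TS against ES change was 6.86, 6.89 or 9.19, and without TS M3, XEN M1 or XEN M2 the TS against XEN change was 7.77, 9.74 or 7.89.

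Krt19 was the most uneven member. It had 90, 123 and 1047 CPM in TS F1, F2 and M3, 1.75 and 131 CPM in XEN M1 and M2, and 1.61 and 4.86 CPM in ES F1 and M2. XEN M2 fell within the TS range and XEN M1 within the ES range. Krt19 rose in TS against ES lines (log2 7.15, SE 2.32, adjusted p = 0.0465), a call that was lost without TS M3 (log2 5.06), ES F1 (6.60) or ES M2 (8.13) and with no filter on low counts (7.16), with adjusted p over all alternatives between 0.00027 and 0.237. TS against XEN lines gave 2.45 (SE 1.79, adjusted p = 0.322), and XEN against ES lines gave 4.70 (SE 2.13, adjusted p = 0.115). Without XEN M2 these became 7.69 and -0.54. The TS against XEN difference was 0.36 without TS M3, 1.47 without XEN M1, 3.09 with limma voom and 3.43 with a sex term, and did not pass under any alternative. The XEN against ES difference passed without XEN M1 (5.69), with DESeq2 (4.67) and in a block fit (4.55), and was 5.69 without ES M2, 2.56 with limma voom and 3.55 with a sex term, with adjusted p between 0.028 and 0.842 over all alternatives. Both passages of XEN M2 held Krt19 (154 and 94.2 CPM), and both passages of XEN M1 were low (1.43 and 1.94 CPM).

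**Figure D3:**
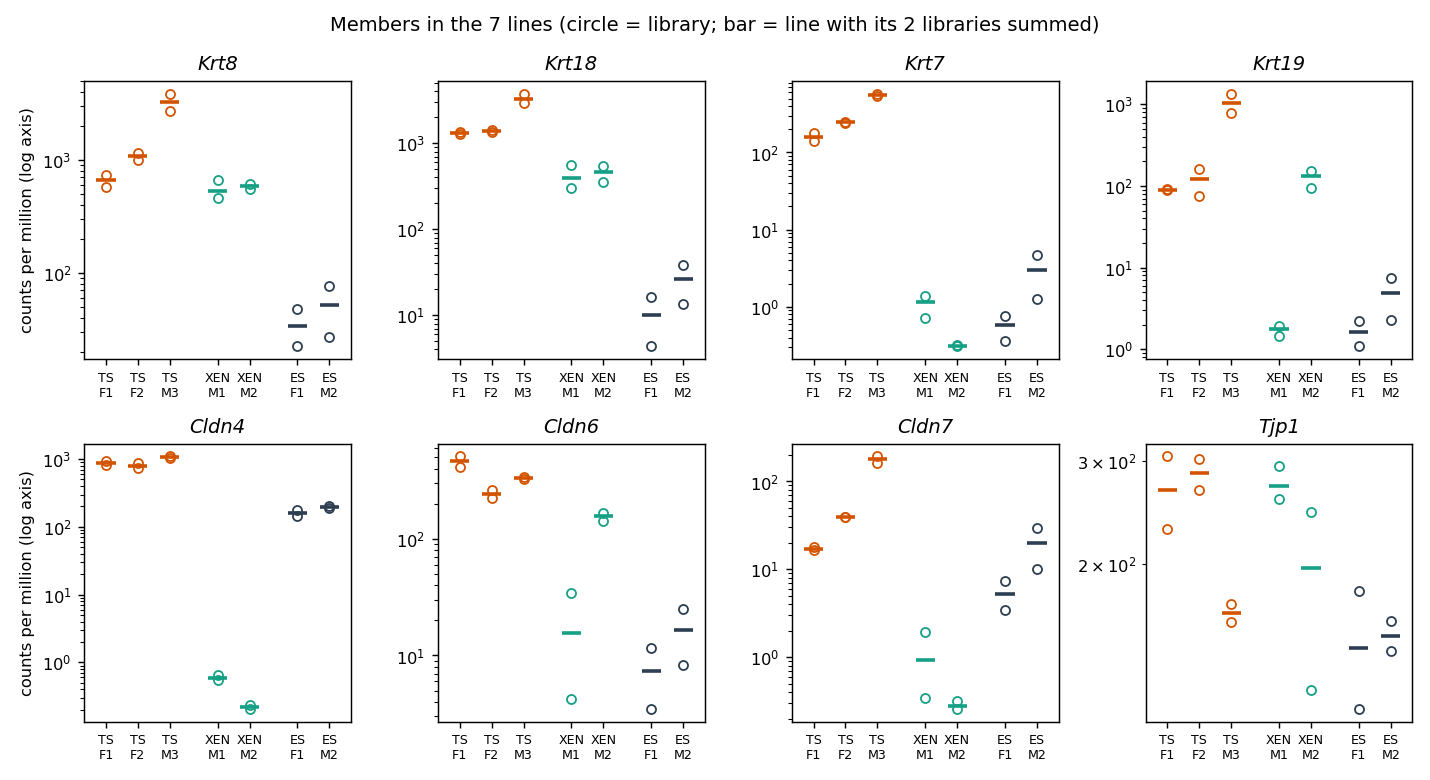
CPM of the members in the TS, XEN and ES lines on log axes, with a circle for each of the 2 libraries of a line and a bar for the line with its libraries summed. Cldn4 lies under 1 CPM in both XEN lines and above 100 CPM in all TS and ES lines, and Krt19 splits XEN M1 from XEN M2.

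Among the claudins, Cldn4 had 865, 799 and 1068 CPM in TS F1, F2 and M3, 0.584 and 0.217 CPM in XEN M1 and M2, and 161 and 197 CPM in ES F1 and M2. XEN lines held 22 and 7 counts, and no lineage overlapped another. Cldn4 rose in TS against ES lines (log2 2.42, SE 0.33, adjusted p = 0.00173) and in TS against XEN lines (log2 10.85, SE 0.51, adjusted p = 2.72e-05), and fell in XEN against ES lines (log2 -8.42, SE 0.48, adjusted p = 4.12e-05). These calls held under each alternative tried. Without XEN M1 the TS against XEN change was 11.73 and the XEN against ES change -9.30.

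Cldn6 had 460, 244 and 333 CPM in TS F1, F2 and M3, 15.5 and 158 CPM in XEN M1 and M2, and 7.29 and 16.5 CPM in ES F1 and M2. XEN M2 was high and XEN M1 was in the ES range. Cldn6 rose in TS against ES lines (log2 4.93, SE 1.03, adjusted p = 0.0087), and TS against XEN lines gave 1.72 (SE 0.86, -0.30 to 3.74, adjusted p = 0.157). It rose in XEN against ES lines (log2 3.21, SE 0.98, adjusted p = 0.0314), a call lost without XEN M2 (0.73), ES F1 (2.76) or ES M2 (3.90), with no filter (3.23), with limma voom (2.44) and with a sex term (3.03), and without XEN M1 the change was 4.09. Adjusted p ranged over all alternatives between 0.0029 and 0.324. TS against XEN lines passed without XEN M2 (4.21) and with limma voom (2.40) and gave 0.85 without XEN M1, with adjusted p between 0.00665 and 0.281 over all alternatives. The TS against ES call was lost without ES F1 (4.48) and the change was 5.61 without ES M2, with adjusted p between 8.31e-06 and 0.0792 over all alternatives.

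Cldn7 had 17.1, 39.6 and 179 CPM in TS F1, F2 and M3, 0.93 and 0.28 CPM in XEN M1 and M2, and 5.28 and 19.8 CPM in ES F1 and M2. TS F1 lay under ES M2, and both XEN lines lay under all others. Cldn7 rose in TS against XEN lines (log2 6.77, SE 1.43, adjusted p = 0.0093) and fell in XEN against ES lines (log2 -3.99, SE 1.32, adjusted p = 0.0412), whereas TS against ES lines gave 2.78 (SE 1.13, 0.14 to 5.41, adjusted p = 0.0841). The TS against XEN call was lost without XEN M2 (6.17) and with limma voom (5.67), and the change was 5.20 without TS M3 and 7.88 without XEN M1. The XEN against ES call was lost without TS F2 (-4.02), XEN M1 (-5.10), XEN M2 (-3.39), ES F1 (-4.64) or ES M2 (-2.78), with no filter (-3.97) and with limma voom (-3.94). Adjusted p over all alternatives ranged between 1.02e-06 and 0.062 for the first and between 0.00266 and 0.193 for the second. The TS against ES difference passed without TS F1 (3.27), with a sex term (2.83) and with all libraries in a block fit (2.78). It was 1.21 without TS M3, 2.14 without ES F1, 3.99 without ES M2 and 1.73 with limma voom, with adjusted p between 0.00902 and 0.339 over all alternatives.

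Tjp1, the scaffold, varied least. It had 268, 287 and 165 CPM in TS F1, F2 and M3, 272 and 197 CPM in XEN M1 and M2, and 144 and 151 CPM in ES F1 and M2. TS M3, high in keratins, was the lowest TS line, though still above both ES lines. Tjp1 rose in TS against ES lines (log2 0.76, SE 0.25, adjusted p = 0.0429) and in XEN against ES lines (log2 1.01, SE 0.27, adjusted p = 0.0183), and TS against XEN lines gave -0.25 (SE 0.24, -0.81 to 0.31). The TS against ES call was lost without TS F1 (0.69), TS F2 (0.63), ES F1 (0.75) or ES M2 (0.77) and with a sex term (0.67), adjusted p ranging over all alternatives between 0.00227 and 0.187. The XEN against ES call was lost without XEN M1 (0.77), ES F1 (1.00) or ES M2 (1.02), adjusted p ranging between 0.00392 and 0.0945.

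Counted together, 7 of the 8 members were called higher in TS against ES lines and 0 lower, where 21.3% of 14687 tested genes were called higher and 20.0% lower. In TS against XEN lines 4 members were called higher and 0 lower, where 20.3% of genes were higher and 16.4% lower. In XEN against ES lines 4 were called higher and 2 lower, where 21.8% of genes were higher and 23.4% lower. The median log2 changes of the members were 5.16, 2.21 and 2.11 in these comparisons, beside 0.02, 0.02 and -0.05 over all tested genes. Without ES F1 the first count was 4 members, and without ES F1 or ES M2 the third was 3 each. The comparisons share lines, so they are not independent of each other.

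**Figure D4:**
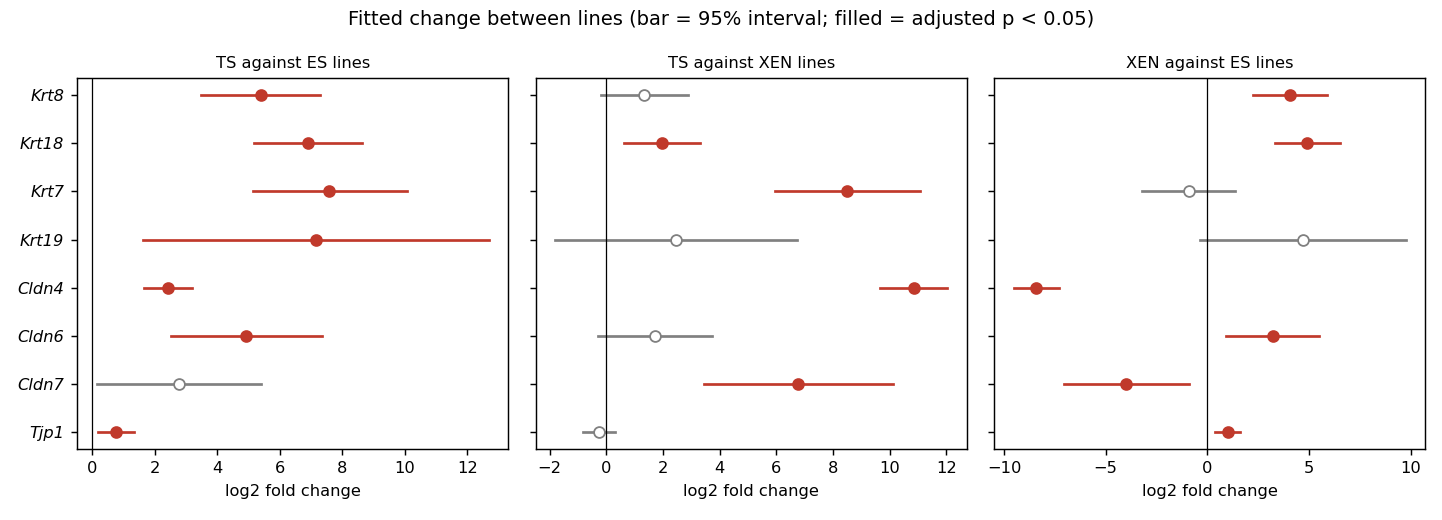
Fitted log2 fold changes (points) of the members with 95% intervals (bars) in TS against ES, TS against XEN and XEN against ES lines, filled where the adjusted p was under 0.05. Cldn4 stands at 10.85 in the middle panel and at -8.42 in the right panel, opposite in sign to Krt8 and Krt18 on the right.

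The ratio of Krt8 to Krt18 differed between lineages. It was -1.0, -0.35 and -0.03 on the log2 scale in TS F1, F2 and M3, 0.44 and 0.33 in XEN M1 and M2, and 1.77 and 0.98 in ES F1 and M2, so the 3 lineages did not overlap. This ratio of counts is not corrected for length, so it compares samples and not the levels of the 2 genes, and it was not tested. ES counts of Krt18 were 173 and 493. The 4 keratins together took 0.222%, 0.285% and 0.815% of the counts in TS lines, 0.093% and 0.119% in XEN lines, and 0.00461% and 0.00854% in ES lines. Krt19 took 12.8% of keratin counts in TS M3 and 11% in XEN M2, against 4.05% and 4.31% in the other TS lines and 0.189% in XEN M1. Of the counts of the 3 claudins, Cldn4 took 64.5%, 73.8% and 67.6% in TS, 3.44% and 0.137% in XEN, and 92.8% and 84.5% in ES lines. Cldn6 took 34.3%, 22.5% and 21.1% in TS, 91.1% and 99.7% in XEN, and 4.2% and 7.08% in ES lines.

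**Figure D5:**
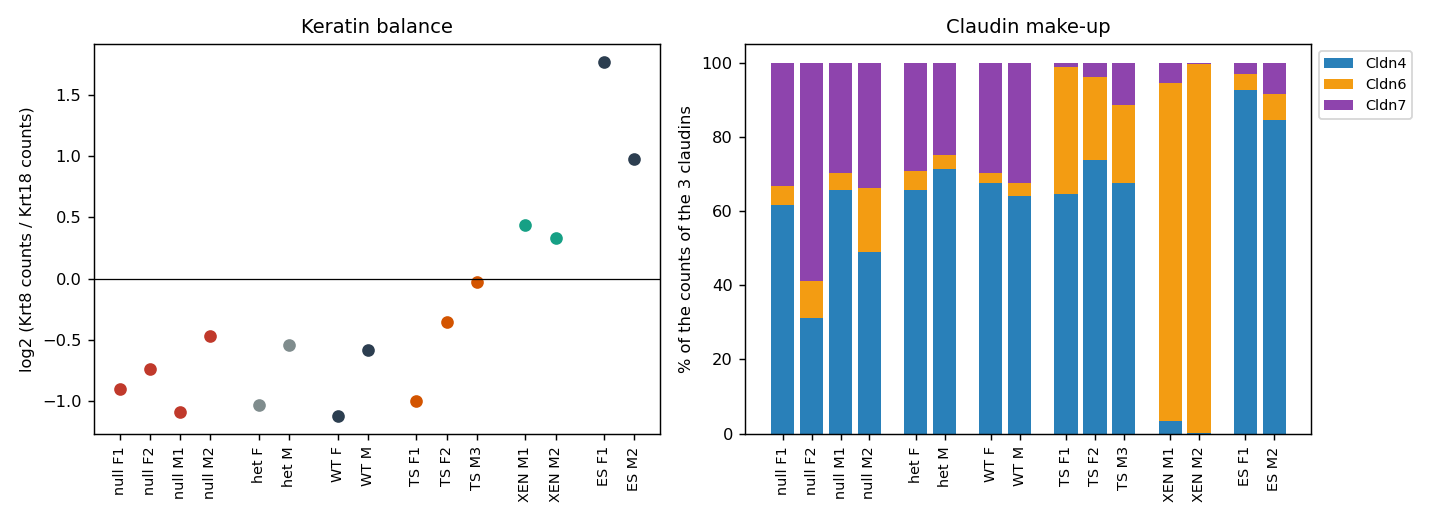
Left, the log2 ratio of Krt8 to Krt18 counts in each embryo and line. Right, the share of Cldn4, Cldn6 and Cldn7 in the counts of the 3 claudins, where Cldn6 takes 91.1% and 99.7% in the XEN lines and Cldn7 takes 58.9% in null F2. Shares are not levels, and Cldn7 in null F2 (386 CPM) lay below every Nanog-bearing embryo.

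Per length, mean levels in TS lines ran Krt18 (1394 ± 785 RPKM), Krt8 (849 ± 707), Cldn4 (501 ± 77), Krt19 (266 ± 345), Cldn6 (213 ± 66.9), Krt7 (78.3 ± 50.7), Cldn7 (58.8 ± 65.6) and Tjp1 (34.1 ± 9.3, SD, n = 3), and only Cldn6 and Krt7 among the neighbours differed by more than the larger SD. In XEN lines the order was Krt18 (300 ± 36.5), Krt8 (286 ± 19.8), Cldn6 (53.4 ± 62.1), Krt19 (42 ± 57.8), Tjp1 (33.3 ± 7.55), Cldn7 (0.453 ± 0.344), Cldn4 (0.221 ± 0.143) and Krt7 (0.177 ± 0.144, n = 2). Among these neighbours only Krt8 and Cldn6, and Tjp1 and Cldn7, differed by more than the larger SD. In ES lines Cldn4 led (98.6 ± 14.2), then Krt8 (21.8 ± 6.35), Tjp1 (20.9 ± 0.635), Krt18 (12.5 ± 7.94), Cldn7 (9.38 ± 7.68), Cldn6 (7.35 ± 4.04), Krt19 (2.05 ± 1.46) and Krt7 (0.432 ± 0.412, n = 2). There Krt8 and Tjp1, Krt18 and Cldn7, and Cldn7 and Cldn6 differed by less than the larger SD.

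Genes of the partner lists were called in every line comparison, as were many of all 14687 tested genes. Over all genes, 21.3% were called higher and 20.0% lower in TS against ES lines, and 20.3% and 16.4% in TS against XEN lines. The median log2 change over all genes was 0.02 in both. Several of the list counts that follow are near these shares, and none was tested as a list. Of 12 tested desmosome and keratin linker genes, 8 were called higher and 2 lower in TS against ES lines (median log2 2.06). Perp, a desmosomal membrane protein, was at 324 ± 73.9 CPM in TS and 9.44 ± 1.99 CPM in ES lines (log2 5.16, SE 0.31, adjusted p = 9.6e-05). Dsp rose by log2 3.33 (SE 0.37), Plec by 2.63 (SE 0.30) and Pkp2, encoding plakophilin 2, by 2.12 (SE 0.31). Against XEN lines 8 rose and 1 fell (median 2.62), led by Perp (5.84), the desmosomal cadherins Dsg2 (4.83) and Dsc2 (8.67) and the linker Ppl (7.10). Dsc2 rested on 6 counts in XEN lines and stood at 7.61 without XEN M1 and 13.12 without XEN M2.

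Of 29 tight junction and polarity genes, 11 were called higher and 3 lower in TS against ES lines, with a median log2 change of 0.61. The junction adhesion gene F11r rose by 2.74 (SE 0.25), Pard6b by 3.11 (SE 0.31) and Cgnl1 by 3.91 (SE 0.41), and Jam2 fell to 0.275 ± 0.151 CPM in TS against 128 ± 16.7 CPM in ES lines (log2 -8.83, SE 0.39). Against XEN lines 9 rose and 6 fell (median 0.29). Tjp3, a paralogue of Tjp1, rose by 4.67 (SE 0.56) and the polarity kinase gene Prkcz by 6.90 (SE 0.87), with 9.39 and 6.08 for Prkcz without XEN M1 and XEN M2. Ildr1 and Marveld3 had 1739 and 1036 counts in TS lines and 1 and 2 counts in XEN lines.

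Of 11 adherens junction genes, 6 rose and 2 fell in TS against ES lines, and 5 rose and 0 fell in TS against XEN lines. Cdh1, encoding E-cadherin, was at 796 ± 38 CPM in TS, 5.36 ± 0.937 CPM in XEN and 369 ± 38.8 CPM in ES lines (log2 6.94 against XEN, SE 0.24, and 1.18 against ES, SE 0.17). Epcam rose by 1.79 (SE 0.20) against ES and 4.01 (SE 0.23) against XEN lines. Vcl, encoding vinculin, rose by 1.01 (SE 0.17) and Ctnna1 by 0.78 (SE 0.15) against ES lines, and the nectin genes Pvrl1 and Pvrl3 rose by 6.51 (SE 0.59) and 1.84 (SE 0.47) against XEN lines. The call of Ctnna1 was lost without ES F1 (0.72) and that of Pvrl3 without XEN M1 (1.46) and with a sex term (1.24), and Pvrl1 stood at 5.65 and 8.29 without XEN M1 and XEN M2.

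Of 7 other claudins tested, 3 rose and 1 fell in each of the TS comparisons. Cldn3 was at 219 ± 75.4 CPM in TS, 0.129 ± 0.00604 CPM in XEN and 8.13 ± 3.12 CPM in ES lines (log2 10.43 against XEN and 4.83 against ES), the same order of lineages as Cldn4 by mean. Cldn9, the neighbour of Cldn6, had 2.34 ± 1.47, 0.257 ± 0.0121 and 0.463 ± 0.168 CPM in TS, XEN and ES lines. It was called higher in TS lines in both comparisons (2.88 against XEN and 2.38 against ES lines), calls lost without XEN M1 (2.92) or XEN M2 (2.84) for XEN and without TS F1 (1.78), ES F1 (2.08) or ES M2 (2.78) for ES lines, and with a sex term for both (2.48 and 2.18). Cldn23 had 356 counts in TS lines and 0 in XEN and ES lines, Cldn19 had 2 in TS and 154 in ES lines, and Cldn2 was lower in TS than in XEN lines (log2 -3.79, SE 0.79).

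Of 9 other keratins tested, 4 rose and 3 fell in TS against ES lines, and 3 rose and 2 fell in TS against XEN lines. Krt14, a basal-layer keratin of stratified epithelia, was at 19.3 ± 20 CPM in TS, 0.0444 ± 0.0252 CPM in XEN and 0.28 ± 0.172 CPM in ES lines (log2 6.20 against ES, SE 1.22). That change stood at 4.80 without TS M3 and 7.03 without ES F1, and its call was lost without ES M2 (5.66). Krt42 fell to 0.447 ± 0.0459 CPM in TS against 9.62 ± 1.27 CPM in ES lines. Krt20 and Krt15 had 242 and 74 counts in TS lines and 0 and 1 in ES lines. Krt23 and Krt13 had 1 count each in TS lines and 1079 and 33 in XEN lines, and Krt16 had 358 in TS and 4 in XEN lines.

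Of 13 other intermediate filament genes, 4 rose and 5 fell in TS against ES lines, and 7 rose and 1 fell in TS against XEN lines. Lmna rose by 2.87 (SE 0.40) against ES lines, where Lmnb2 (-0.83, SE 0.15), Ina (-2.95, SE 0.41) and Nefh (-2.42, SE 0.48) fell. Vim, the mesenchymal filament gene, fell to 129 ± 101 CPM in TS against 1026 ± 62.3 CPM in XEN lines (log2 -3.29, SE 0.52). The neuronal filament genes Ina, Nefh and Nefm had 86, 162 and 166 counts in TS lines and 3, 4 and 1 counts in XEN lines. The call of Lmnb2 was lost without ES F1 (-0.81) and that of Nefh against ES lines without ES M2 (-1.85), and Vim stood at -4.08 without TS F2.

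Of 18 trophectoderm and epithelial transcription factors, 13 rose and 1 fell in TS against ES lines (median 2.34), and 12 rose and 1 fell in TS against XEN lines (median 5.40). Hand1 was at 1300 ± 415 CPM in TS, 0.426 ± 0.0745 CPM in XEN and 0.927 ± 0.638 CPM in ES lines. Gata3 rose by 7.42 (SE 0.78) and Esx1 by 5.21 (SE 0.65) against ES lines, and Grhl2, encoding a grainyhead-like epithelial factor, by 6.69 (SE 0.54) against XEN lines. Gata3 stood at 10 without ES F1 and 6.5 without ES M2, and Esx1 at 4.55 without TS M3. Elf5, a TS factor, was at 226 ± 51.4 CPM in TS lines, with 3 counts in ES and 14 in XEN lines, and Grhl3 had 4961 counts in TS and 2 in XEN lines. In XEN against ES lines, where 21.8% of all genes were called higher and 23.4% lower, 2 of the 18 transcription factors rose and 5 fell. Of 12 desmosome and linker genes 3 rose and 5 fell, and of 29 tight junction and polarity genes 10 rose and 8 fell. Of 11 adherens junction genes 2 rose and 5 fell, of 7 other claudins 2 rose and 2 fell, of 9 other keratins 2 rose and 1 fell, and of 13 other filament genes 3 rose and 7 fell. Several of these counts are near the share over all genes, and none was tested as a list.

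Markers of other cells differed between lines, and the fibroblast and blood sums were highest in TS F2 (169 and 807 CPM), not in TS M3. The 12 differentiated trophoblast markers summed to 399, 735 and 3760 CPM in TS F1, F2 and M3, 4.99 and 7.74 CPM in XEN lines, and 12.7 and 9.31 CPM in ES lines, with Prl3d1, Prl3b1, Prl4a1, Ctsq, Tpbpa and Gcm1 at 0 in ES lines. TS M3, the line with the most Krt8, Krt18, Krt7, Krt19, Cldn4 and Cldn7, was also the highest by these markers. It is the only male TS line, so line, sex and marker level cannot be told apart. The 12 fibroblast markers summed to 59.8 to 169 CPM in TS, 10.5 to 11.1 CPM in XEN and 34.4 to 35.5 CPM in ES lines, with none at 0 throughout TS lines and Col3a1, Lum and Prrx1 at 0 in XEN and ES lines. The 9 blood markers summed to 192 to 807, 4.26 to 6.43 and 438 to 673 CPM in TS, XEN and ES lines, of which Laptm5 alone gave 166 to 763 CPM in TS and 421 to 657 CPM in ES lines, with Ptprc, Lyz2 and Tyrobp at 0 in ES lines. The 9 oviduct and cumulus markers summed to 36.2 to 126, 5.22 to 7.41 and 14.4 to 17.3 CPM. Epiblast markers summed to 464 to 804, 180 to 194 and 8800 to 9240 CPM, and primitive endoderm markers to 936 to 1280, 38800 to 40200 and 205 to 226 CPM. Their part in the values of the members was not tested.

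Counting could also touch some members. In GENCODE M21 (GRCm38) Krt7 overlaps the antisense gene Gm671, Krt8 overlaps the lincRNA Gm36026 on the opposite strand, and Tjp1 overlaps 2 tentatively annotated genes and a pseudogene. Use of strand in the counting is not given in the sources used here, so such reads cannot be told apart from those of the members.

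The genes whose pattern lay nearest to the mean pattern of Krt8 and Krt18, by root mean square difference in centred log2 CPM, were in embryos (n = 8) Ppfibp1 (0.093), Pacsin2 (0.174), Npm3-ps1 (0.180), Rod1 (0.184) and Rbm4b (0.194). In lines (n = 7) they were Fstl3 (0.200), Procr (0.494), Cnn2 (0.522), Slc25a24 (0.523) and Pea15a (0.606). For the mean of the 3 claudins they were Anxa2 (0.072), Tagln2 (0.141), 9130401M01Rik (0.159), Sgk1 (0.172) and Tmem39a (0.174) in embryos, and Slc16a3 (0.53), Capg (0.597), Tbc1d2 (0.599), Extl1 (0.615) and Ifi35 (0.638) in lines. Krt8 and Krt18 lay 0.123 from their own mean in embryos and 0.416 in lines. Cldn4, Cldn6 and Cldn7 lay 0.573, 0.564 and 0.282 from theirs in embryos and 2.17, 2.41 and 0.88 in lines, so the claudins lay farther from their mean than the keratin pair. With a mean of at least 5 log2 CPM in place of 3, 2 of the 5 named genes stayed for the keratins in embryos, 2 in lines and 1 for the claudins in lines.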

How the data were processed

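RNA-seq read counts per gene for 8 single embryos and 14 line libraries were analysed as deposited by the authors. Per the submitters' processing notes, TopHat 1.3.1, edgeR and the mm9 build were used. For the counting program, the annotation and strand, the method is not given in the sources used here. The other deposited table of the authors names genes with a word for their direction and holds no measurement. In R 4.3.3, edgeR 4.0.16 fitted a quasi-likelihood model to all genes kept by its filter on low counts, with TMM scaling and Benjamini-Hochberg adjustment at 0.05. Embryos were fitted by genotype with sex as a covariate (12965 genes), with Nanog-bearing as the equally weighted mean of heterozygous and wild-type embryos. The 2 libraries of a line were summed and the 7 lines fitted by lineage (14687 genes). CPM uses library totals. Alternatives were DESeq2 1.42.0 (with its own size factors), limma 3.58.1 voom with quality weights, RLE size factors, no filter, the sex term dropped or added, null F1 and M2 left out, each sample left out, and 14 libraries with a replicate block. The scripts were tested on simulated data. Python 3.11.15 with pandas 2.3.3 and matplotlib 3.10.9 made summaries and figures. Members and gene lists were chosen with earlier results of these data known. Named partner genes followed a fixed rule per list and comparison. Intervals are 95%. The level of 1 marker gene is not reported here.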

Additional observations from a re-analysis of the deposited data

Results flagged for a closer look

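Cldn7 stood at 1.93 CPM (27 counts) in the first library of XEN M1, against 0.256 to 0.338 CPM in the other 3 XEN libraries, which set that library apart from the rest of its group. It was the only such case in 32 groups of samples tested. Chance flags about 1 in 20 groups of independent samples, but libraries of the same line are not independent, so that rate need not hold here.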

How the results depend on the processing

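In embryos 0 members were called under every alternative, whereas the genes called over the whole table in null against Nanog-bearing embryos were 2 in the reported fit, 50 with no filter, 87 with DESeq2 and 0 with limma voom. The same 4 counts were 2, 37, 96 and 0 against wild-type embryos, 1, 19, 77 and 0 against heterozygous embryos, and 0, 4 and 76 (reported, no filter and DESeq2) between heterozygous and wild-type embryos. Some differences changed sign, among them Ina (1.93 in the reported fit) and Krt7 (0.62, 1.06, 0.18 and 0.88 in the 4 comparisons), and the cause was not tested. With limma voom, null against Nanog-bearing embryos gave -0.21 for Krt7 and -1.62 for Ina, null against wild-type gave -0.02 for Tjp1, and null against heterozygous gave -0.53 for Krt7 (-0.33 with no sex term). With null F1 and M2 left out, Krt7 and Tjp1 gave -0.16 and -0.01 against wild-type embryos, and Krt7 gave -0.69 in heterozygous against wild-type embryos. Leaving out 1 embryo gave, for null against Nanog-bearing, -0.40 to 3.29 for Krt7, -0.20 to 0.24 for Cldn7, -0.16 to 0.00 for Tjp1, -0.52 to 3.51 for Ina and -1.87 to 7.55 for Krt23. Against wild type it gave -0.49 to 1.73 for Krt7, -0.34 to 0.21 for Cldn7 and -0.06 to 0.12 for Tjp1. Against heterozygous embryos it gave -1.38 to 5.60 for Krt7, -0.14 to 0.31 for Cldn7 and -0.58 to 0.16 for Krt18, and in heterozygous against wild-type embryos -4.61 to 2.37 for Krt7, -0.04 to 0.26 for Cldn4 and -0.41 to 0.14 for Cldn7. Leaving out 1 line gave 4 to 7 members called in TS against ES lines, 3 to 5 in TS against XEN lines and 3 to 6 in XEN against ES lines, where Krt19 ranged from -0.54 to 5.69 and Krt7 from -2.14 to 0.68. With all 14 libraries and a replicate block, 8, 5 and 7 members were called in these comparisons, against 7, 4 and 6 in the reported fit, and Krt19 in XEN against ES lines passed (4.55). The replicate numbers mark passages and did not pair the lines: passage differences correlated between -0.37 and 0.15 over 21 pairs of lines, 2 of them above 0.1. Only 2 to 4 samples per group and the wide spread among null embryos limit what these tests can detect.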
